A study of Rattus norvegicus with 12 samples.

Results

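Most mitochondrial proteins are made in the cytosol and have to be carried into the organelle, folded there and, when damaged, degraded. The 35 genes described here encode that machinery. They were taken from a list of gene names (Tomm70 is listed on the array as Tomm70a), and they stand among 36174 named features of the array, of which 14746 were bright enough to test. All 35 passed that brightness filter. By role, 8 genes act at the outer membrane, 13 at the inner membrane and in the intermembrane space, 5 are chaperones, and 9 are proteases or prohibitins.

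Expression was measured in N27 cells, a rat cell line labelled as dopaminergic neurons, on 1-colour Agilent arrays. The study compared 7 cultures in which Vdac1 had been removed by CRISPR (knockout, KO 1 to KO 7) with 5 wild-type cultures (WT 3, WT 5, WT 6, WT 7 and WT 8). All were grown to 80% confluence, and no other allele or agent is named for either group. The sources used here do not say where the edit lies, whether the knockout is 1 clone or several, or whether the cultures were independent. The p-values therefore speak only of the spread among these 12 samples, which may be technical.

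VDAC1, the protein removed, is a beta-barrel channel of the outer mitochondrial membrane. Like other beta-barrels it enters through the translocase of the outer membrane (TOM), whose own channel Tomm40 is a beta-barrel too, is escorted by small chaperones of the intermembrane space, and is inserted by the sorting and assembly machinery built around Samm50. Proteins bound for the matrix pass on through the Timm23 channel and are pulled in by mitochondrial Hsp70, carrier proteins are inserted by the Timm22 channel, and in the matrix presequences are cut off, Hsp60 and Hsp10 fold the new protein, and AAA proteases remove what fails.

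No gene of the set passed the test between knockout and wild type. Of the 35, 0 had an adjusted p under 0.05 in limma's moderated test, where 1.09% of all tested features did (0.698% higher and 0.393% lower in the knockout), and in 0 of the 35 did the knockout and wild-type arrays not overlap, where 2.73% of features did so. The smallest adjusted p was 0.0762, for Timm8a1. At an unadjusted p under 0.05 there were 6 genes, or 17.1%, which is close to the 15.6% of all features: 4 with the higher mean in the knockout (Tomm40, Tomm22, Hspe1 and Phb, against 9.35% of features) and 2 with the lower (Timm8a1 and Hspa9, against 6.23%). The knockout mean was the higher in 23 genes and the lower in 12, and the median log2 fold change (knockout minus wild type, throughout) was 0.10, beside 0.04 over all tested features. That split depended on the scaling of the arrays, and was 19 to 16 with a median of 0.02 under quantile normalization.

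The 95% intervals show how precisely the mean difference of each gene was measured. Each is read for its gene alone, without adjustment over the 35, and treats the 12 arrays as independent. They do not bound a difference within a part of the arrays. For Timm9 the interval was -0.63 to 0.37, while KO 5 to KO 7 lay 0.98 above KO 1 to KO 4 on average. For all 35 genes the 95% interval of the log2 fold change lay within 1 of zero, that is, inside a 2-fold difference either way, as it did for 79.1% of all tested features. For 20 of the 35 it also lay inside a 1.5-fold difference. The widest bound was 0.89 and the median standard error 0.15.

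**Figure D1:**
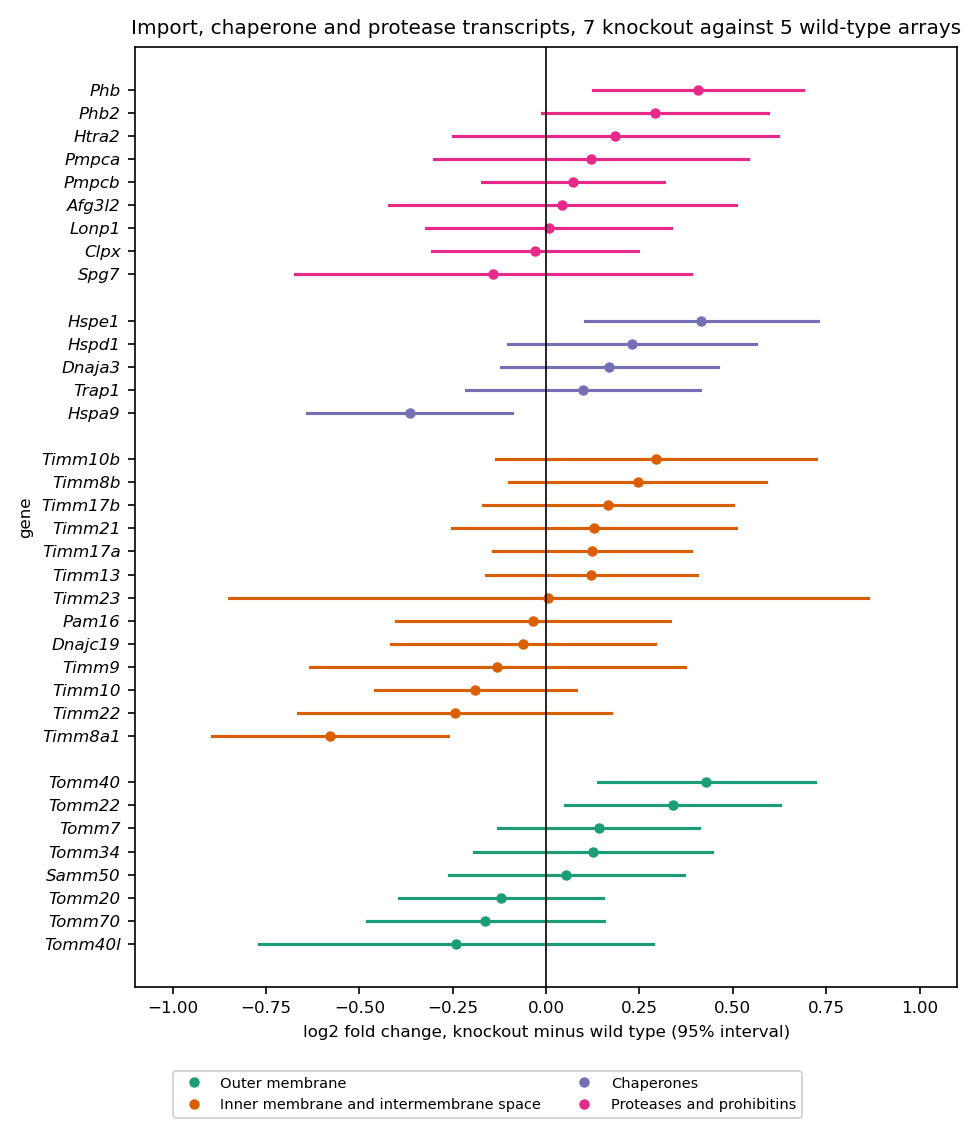
Log2 fold change of each of the 35 genes, knockout minus wild type (x axis), with its 95% interval from limma as a line; colours mark the 4 roles and genes are ordered by fold change within a role. Every interval stays within 1 of zero, 6 lie wholly to one side of it, and Timm8a1 has the fold change farthest from zero, at -0.58, with an adjusted p of 0.0762.

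Vdac1 itself was below the wild type on every knockout array at each of its 3 probes. The fitted log2 difference was -1.23 ± 0.28 (SE) with a limma adjusted p of 0.0560, so the targeted gene itself did not pass. A gene that does not pass may thus still differ. Vdac1 was lower in KO 5 to KO 7 (1.20 to 1.53 at the brightest probe) than in KO 1 to KO 4 (2.26 to 2.68). The arrays lay on 3 slides that each held both genotypes. Slide 1 held KO 6, KO 7, WT 3 and WT 8, and slide 2 held KO 1, KO 2, KO 3 and WT 5. On slide 2 genotype thus cannot be told apart from sample number. Slide 3 (KO 4, KO 5, WT 6 and WT 7) was scanned on another day than slides 1 and 2 and was dimmer, with 42.3% to 44.9% of spots well above background against 46.9% to 53.8%. Of 8 markers of dopaminergic neurons, Th, Slc18a2, Nr4a2 and Aldh1a1 passed the filter, and Slc6a3, Ddc, Pitx3 and Foxa2 did not; of 7 general neuronal markers only Tubb3 and Eno2 did, while Map2, Syp, Snap25 and Nefl were well above background on no array. None of 5 astrocyte markers passed, nor did more than 1 of 5 for oligodendrocytes (Mag) or microglia (Cx3cr1), and 3 of 5 fibroblast markers did (Col1a1, Col1a2 and Pdgfra). The summed level of each of these 6 lists overlapped between knockout and wild type. For the dopaminergic markers it was 0.665 to 1.30 and 0.625 to 1.23 times the array's 75th percentile. Such a sum follows the brightest genes of a list. Nr4a2, well above background on only 5 arrays, differed by -1.19 ± 0.38 (limma adjusted p = 0.143). Th, Slc18a2 and Aldh1a1 differed by 0.17, -0.08 and 0.63, and none of these passed. In RNA of a whole culture, fewer cells with a transcript and less of it per cell cannot be told apart.

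Sequences are shown here for the chaperonin pair, because 5 probes on 2 genes and a shared promoter can be set side by side, and for the inner membrane channel Timm23, whose 2 probes gave different pictures. The array probes are 60 bases long and are given in the sense of the transcript; their positions are in rat build rn4 as the files give them, on the minus strand, and the Timm23 probe spans an intron. The promoter is the 250 bases upstream of the Hspe1 start in RefSeq's table for GRCr8, on the plus strand, and its capitals mark the overlapping matches to a heat shock element and an ETS site described further on.
Hspd1 probe at transcript base 1168 (chr9:53886764-53886823): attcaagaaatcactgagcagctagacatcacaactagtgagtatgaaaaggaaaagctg
Hspd1 probe at transcript base 1689 (chr9:53884671-53884730): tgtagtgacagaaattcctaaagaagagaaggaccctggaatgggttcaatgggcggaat
Timm23 probe at transcript base 587 (chr16:7663655-7674636): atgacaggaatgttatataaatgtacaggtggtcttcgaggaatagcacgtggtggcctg
Hspe1 promoter (chr9:64084077-64084326): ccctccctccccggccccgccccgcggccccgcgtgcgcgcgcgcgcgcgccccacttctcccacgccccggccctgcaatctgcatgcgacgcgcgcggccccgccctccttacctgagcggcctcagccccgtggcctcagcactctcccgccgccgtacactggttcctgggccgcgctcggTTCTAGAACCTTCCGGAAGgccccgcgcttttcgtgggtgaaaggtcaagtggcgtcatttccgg

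At the outer membrane the channel Tomm40 and the central receptor Tomm22 had the smallest p. All values below are log2 processed signal minus the array's 75th percentile, read at the gene's brightest probe, and have meaning only within a gene. Wild-type values are listed in the order WT 3, WT 5, WT 6, WT 7, WT 8. Tomm40 (probe at chr1:79018861-79019454, rn4, spanning an intron) read -1.86, -1.71, -1.23, -1.35 and -1.52 on the wild-type arrays, and ran from -1.25 to -0.91 in the knockout with a median of -1.11. All but 1 of the knockout arrays were above every wild-type array, and KO 6 lay just under WT 6. The difference was 0.43 ± 0.13 (SE, 7 against 5 arrays; limma adjusted p = 0.139), about 1.35-fold, with the higher value in the knockout on each of the 3 slides (0.52, 0.62 and 0.22).

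Tomm22, whose probe lies at chr7:117914881-117914940, read 3.87, 3.49, 3.34, 3.55 and 3.58 on the wild-type arrays, against 3.63 to 4.11 in the knockout (median 3.95). WT 3 was the high wild-type array and sat inside the knockout range, while the other wild-type arrays lay below all 7 knockout arrays. The difference of 0.34 ± 0.13 did not pass (adjusted p = 0.240), and it was -0.04 within slide 1, which holds WT 3, against 0.51 and 0.53 within slides 2 and 3.

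Tomm40l, the paralog of Tomm40, did not share its direction. It was detected above background on 6 of 7 knockout and all 5 wild-type arrays, and the other 34 genes of the set on all 12. Its values were -3.48, -3.00, -2.89, -2.85 and -3.14 on the wild-type arrays, and they spread from -4.11 to -2.60 in the knockout around a median of -3.16. The knockout arrays thus enclosed the wild type on both sides, and the difference was -0.24 ± 0.24 (adjusted p = 0.676).

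The remaining outer membrane genes differed by less than 0.20 on the log2 scale. The presequence receptor Tomm20 gave -0.12, the carrier receptor Tomm70 -0.16, the small TOM subunit Tomm7 0.14, the cytosolic import co-chaperone Tomm34 0.12, and Samm50, core of the beta-barrel insertase, 0.05. Over the 8 outer membrane genes 5 means were higher in the knockout and 3 lower, none passed, and the median of 0.09 turned to -0.02 under quantile normalization and in the deposited value table.

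**Figure D2:**
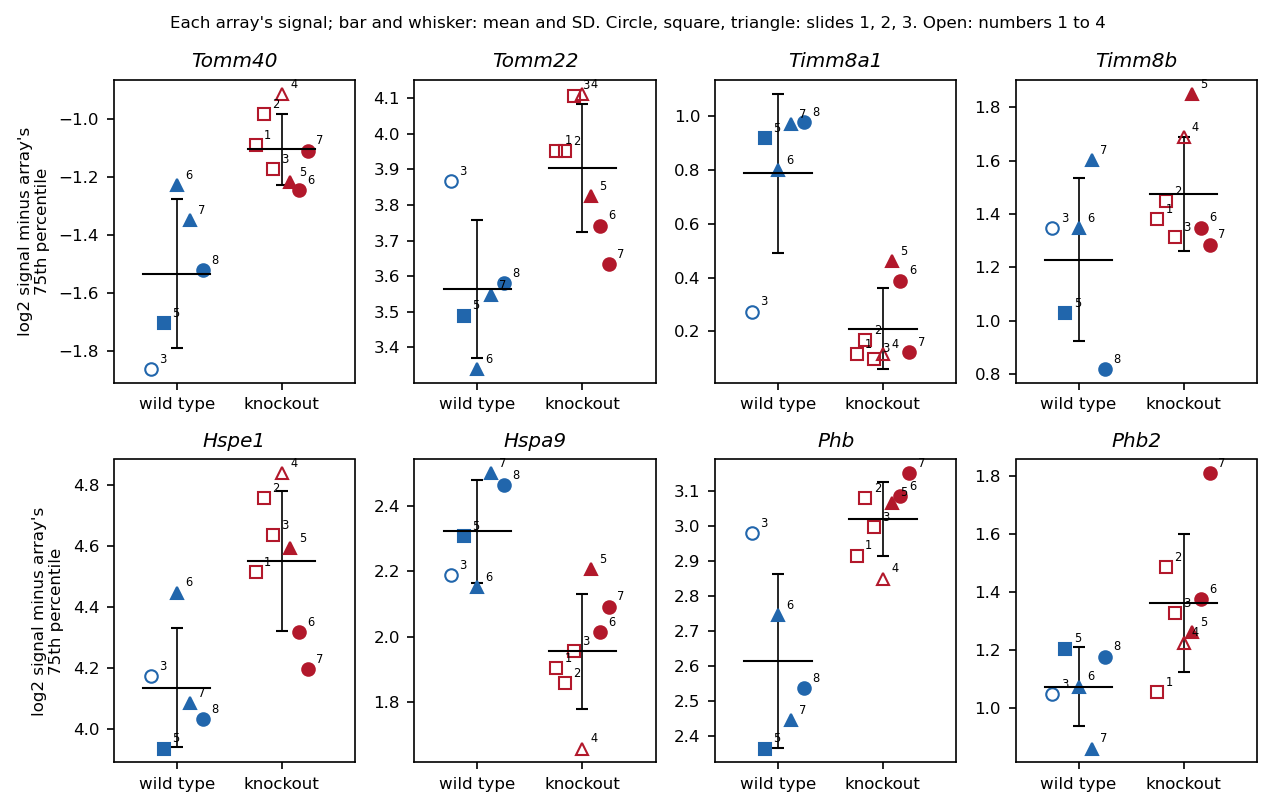
Log2 signal (minus the array's 75th percentile) of the 2 genes with the smallest p in each role, 1 point per array with its sample number; the bar and whisker are the group mean and SD, the shapes circle, square and triangle are slides 1, 2 and 3, and open points carry sample numbers 1 to 4. The vertical axis differs between genes and does not start at 0. In no panel do the groups separate: in Timm8a1 only WT 3 (0.27) lies inside the knockout range of 0.10 to 0.46, and in Tomm40 only KO 6 lies below the highest wild-type array.

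In the intermembrane space the 6 genes for the small Tim chaperones had differences of both signs, and none passed. Timm8a1 is the rodent gene for TIM8A, whose human counterpart is mutated in deafness-dystonia syndrome, and it works in a complex with Timm13. Its probe at chrX:121993848-121993907 read 0.27, 0.92, 0.80, 0.97 and 0.98 on the wild-type arrays, and 0.10 to 0.46 in the knockout (median 0.12). WT 3 was the low wild-type array and overlapped the knockout, and the other wild-type arrays were all higher than any knockout array. The log2 difference was -0.58 ± 0.15 (95% interval -0.89 to -0.26; adjusted p = 0.0762), a knockout level 0.670 times that of the wild type, and within slides 1, 2 and 3 it was -0.37, -0.79 and -0.60.

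The call on Timm8a1 turned on WT 3 and on the setting. Without WT 3 the difference was -0.71 with a limma adjusted p of 0.0113. It also passed with the trended and robust variance (0.0480) and with the filter set to all 12 arrays (0.0463). With a block for sample numbers of 1 to 4 or 5 to 8 it passed too (-0.45, 0.0466). In that order these settings called 650, 299, 289 (of 11035) and 748 of all features, against 161 in the main fit. On slide 2 WT 5 is the only wild-type array and is assumed to vary like the 3 knockout arrays. Within that slide Timm8a1 passed as well (-0.79), as did far more features than in the main fit. Its adjusted p lay between 0.0113 and 0.888 across 28 alternatives, and the sign was negative in all of them.

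Timm8b, the paralog of Timm8a1 on chromosome 8, read 1.35, 1.03, 1.35, 1.60 and 0.82 on the wild-type arrays, and 1.29 to 1.85 in the knockout (median 1.38). The groups overlapped through most of their range, and the difference was 0.25 ± 0.16 (adjusted p = 0.486). Both paralogs kept their opposite signs on each slide.

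Timm13, the partner of Timm8a1, differed by 0.12 and Timm9, which forms the carrier-escorting complex with Timm10, by -0.13, while Timm10 itself differed by -0.19. Timm10b, the small Tim that docks on the Timm22 complex, differed by 0.29 at one probe and by 0.30 ± 0.12 at a second (adjusted p = 0.249). For Timm9 the spread lay inside the knockout group: KO 1 to KO 4 read -0.10 to 0.13 and KO 5 to KO 7 read 0.85 to 1.08, with the wild type between at 0.34 to 0.67.

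The presequence channel is built from Timm23 and 1 of 2 forms of its partner Timm17. Timm17a, the form on chromosome 13, read 1.93, 1.74, 1.97, 2.35 and 1.88 on the wild-type arrays, against 2.01 to 2.21 in the knockout (median 2.09). The X-linked Timm17b read -0.02, -0.25, -0.49, 0.04 and -0.18 on the wild-type arrays, against -0.45 to 0.34 (median 0.02). In both genes the groups overlapped; they differed by 0.12 ± 0.12 (95% interval -0.14 to 0.39) and 0.17 ± 0.15 (-0.17 to 0.50).

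Timm23 itself gave the widest interval of the set. Its brightest probe differed by 0.01 ± 0.40 between genotypes, with an interval from -0.85 to 0.86. On slide 3 that probe read 4.35 in KO 4, 4.51 in KO 5, 4.41 in WT 6 and 4.54 in WT 7, while the 8 other arrays read 2.62 to 3.30. With slide as a block the genotype difference was 0.18 ± 0.14 (adjusted p = 0.521), and the second probe, whose sequence is given above, read 0.24 ± 0.17 between genotypes.

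None of the other inner membrane genes passed. Timm21, which ties the Timm23 channel to the TOM complex, differed by 0.13, the carrier channel Timm22 by -0.25, and the motor regulators Pam16 and Dnajc19 by -0.03 and -0.06. Of the 13 genes of the inner membrane and intermembrane space, 7 means were higher in the knockout and 6 lower, none passed, and the median of 0.01 turned to -0.12 under quantile normalization and in the deposited value table.

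Among the chaperones, the means of the chaperonin and its lid were higher in the knockout and that of mitochondrial Hsp70 was lower. Hspe1, the Hsp10 lid of the chaperonin (probe at chr9:53898351-53898410, rn4), read 4.17, 3.93, 4.45, 4.08 and 4.03 on the wild-type arrays, and 4.20 to 4.84 in the knockout (median 4.59). Of the 7 knockout arrays 5 were above every wild-type array, and KO 6 and KO 7 overlapped WT 6. The difference was 0.42 ± 0.14 (adjusted p = 0.183), about 1.33-fold, and a second probe of the gene gave 0.39 (adjusted p = 0.148).

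Hspd1, which encodes Hsp60, read 3.92, 3.46, 4.20, 3.90 and 3.63 on the wild-type arrays at its brightest probe, against 3.83 to 4.34 in the knockout (median 3.99). Only KO 4 and KO 5, both on slide 3, were above every wild-type array, and the difference was 0.23 ± 0.15 (adjusted p = 0.497). The probes at bases 1168 and 1689, printed above, gave 0.31 and 0.48 ± 0.15 (adjusted p = 0.137 for the latter). All 5 probes of Hspd1 and Hspe1 thus had the higher mean in the knockout, and none passed.

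Hspa9, mitochondrial Hsp70 or mortalin, is the motor of matrix import and is also known as a binding partner of VDAC at contacts with the endoplasmic reticulum. At chr18:27418959-27419018 it read 2.19, 2.31, 2.15, 2.50 and 2.46 on the wild-type arrays, and 1.66 to 2.21 in the knockout (median 1.96). All knockout arrays but KO 5 were below every wild-type array. The difference of -0.37 ± 0.13 did not pass (adjusted p = 0.183), was negative within all 3 slides (-0.27, -0.40 and -0.39), and was -0.29 ± 0.19 at the second probe.

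The 2 other chaperones had higher means in the knockout: Dnaja3, a J-protein partner of Hspa9, by 0.17, and Trap1, the mitochondrial Hsp90, by 0.10. Over the 5 chaperones 4 differences were positive and 1 negative, with a median of 0.17, and none passed.

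The prohibitins Phb and Phb2 assemble together into ring scaffolds of the inner membrane that hold the AAA proteases and support the respiratory chain. Phb read 2.98, 2.36, 2.74, 2.44 and 2.54 on the wild-type arrays, and 2.85 to 3.15 in the knockout (median 3.07). WT 3 was again the wild-type array inside the knockout range, and without it the groups would not overlap. With all 12 arrays the difference was 0.41 ± 0.13 (limma adjusted p = 0.149), about 1.32-fold. Without WT 3 it was 0.50 with an adjusted p of 0.0382, against a range of 0.0382 to 0.966 over its 28 alternatives. The fit without WT 3 called 650 of all features, against 161 with all 12 arrays. The files list this probe under the Phb transcript but place it on chromosome 19 of rn4 (chr19:9123634-9123693), whereas RefSeq's table for GRCr8 has the gene on chromosome 10. No other probe of Phb was read, so what these values hold besides Phb was not tested.

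Phb2, on chromosome 4, read 1.05, 1.20, 1.07, 0.86 and 1.18 on the wild-type arrays, and 1.06 to 1.81 in the knockout (median 1.33). Every knockout array but KO 1 was above the whole wild-type group. The difference was 0.29 ± 0.14 (95% interval -0.01 to 0.59; adjusted p = 0.335), and both prohibitins had the higher knockout mean on all 3 slides.

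The matrix processing peptidase, which clips presequences, consists of Pmpca and the catalytic subunit Pmpcb. Pmpca read -0.98, -1.66, -1.40, -1.22 and -1.94 on the wild-type arrays, against -1.78 to -0.95 in the knockout (median -1.21). Pmpcb read 2.49, 2.60, 2.53, 2.75 and 2.44 on the wild-type arrays, against 2.47 to 2.78 (median 2.62). In each the groups covered nearly the same range, and the differences were 0.12 ± 0.20 and 0.07 ± 0.11.

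The proteases proper differed by less than 0.20. Lonp1, the main soluble protease of the matrix, differed by 0.01 (95% interval -0.32 to 0.34), although its probe is placed on an unassigned chromosome of rn4. Clpx, the unfoldase that feeds the ClpP protease, differed by -0.03 (-0.31 to 0.25), and Afg3l2 and Spg7, the m-AAA protease subunits of the inner membrane, by 0.04 and -0.14. Htra2, a serine protease of the intermembrane space, differed by 0.19 (-0.25 to 0.62). Over the 9 proteases and prohibitins 7 means were higher in the knockout and 2 lower, or 5 and 4 under quantile normalization, none passed, and the median was 0.07.

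How well the array measured each gene could be checked where several probes passed. This held for 11 genes, and in 9 of them every probe gave the same sign for the genotype difference. The exceptions were Tomm70, with -0.16 at its brightest probe and 0.04, 0.01 and 0.03 at the others, and Spg7, with -0.14 and 0.04.

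Against slide the probes were less alike: only 5 of the 11 genes gave 1 sign for slide 3 minus slides 1 and 2. Timm23 read 1.42 higher on slide 3 at its brightest probe and -0.25 at the probe printed above. Spg7 read 0.81 and -0.22, and Timm10b -0.62 and -0.08. The probes of each of these genes thus differed in how far slide 3 stood apart.

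**Figure D3:**
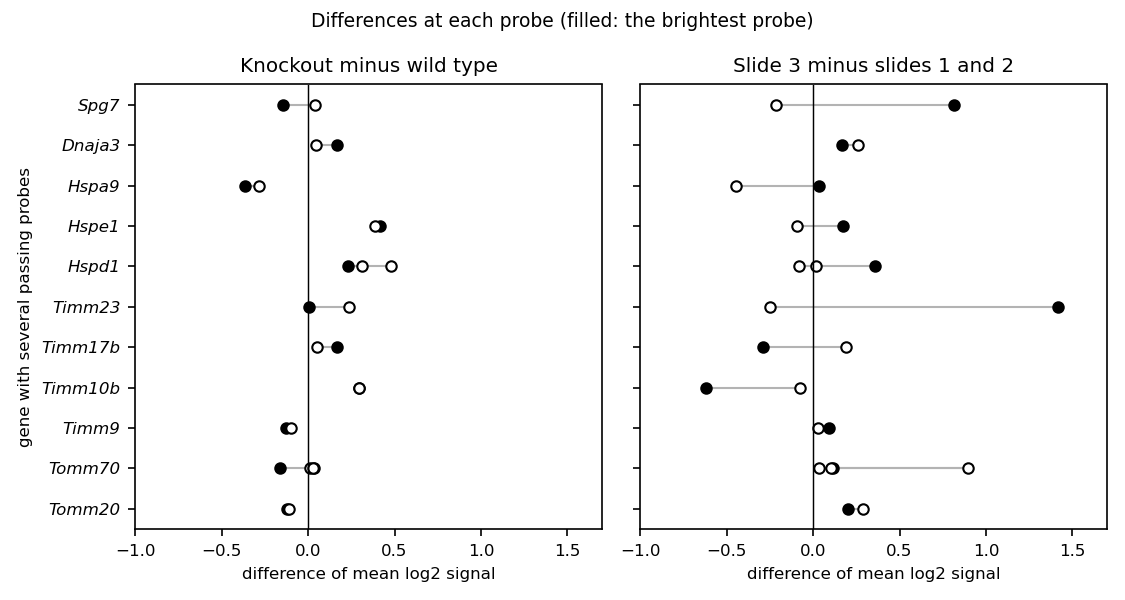
Differences at each passing probe of the 11 genes with several passing probes, knockout minus wild type (left) and slide 3 minus slides 1 and 2 (right), in log2 signal; filled points are the brightest probe and grey lines join the probes of a gene. For Hspe1 the genotype difference is 0.42 and 0.39 at its probes, whereas for Timm23 the slide difference is 1.42 at one probe and -0.25 at the other.

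Slide and sample number also set arrays apart within genes of the set. In 9 of the 35 genes (25.7%) the 4 arrays of slide 3 lay wholly above or below the other 8, where 6.33% of all features did: Timm23, Pam16, Htra2 and Spg7 above (3.78% of features), and Samm50, Timm10b, Trap1, Lonp1 and Afg3l2 below (2.54%). In 18 genes the slide 3 difference was larger than the genotype difference. Since every slide holds both genotypes, the fit with slide as a block gives the genotype difference within slides. On slide 2 that difference goes with sample number as well, since KO 1, KO 2 and KO 3 lay beside WT 5 alone. With slide as a block limma called 0 of the 35 genes, against 2.74% of features. At an unadjusted p under 0.05 were 10 of the 35 genes and 2746 of 14732 features.

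Within the knockout group, KO 5 to KO 7 were apart from KO 1 to KO 4 in 10 of the 35 genes (28.6%, against 37.1% of all features). Tomm20, Tomm40l, Tomm70, Timm9, Timm13, Timm22, Dnajc19 and Hspa9 were higher in KO 5 to KO 7 (8 genes, with 19.9% of features), and Tomm22 and Timm10 lower (2 genes, with 17.3%). This is the split that Vdac1 itself showed, and the sources used here do not say whether samples of these numbers differ in clone or culture. The split also goes largely with slide: KO 1, KO 2 and KO 3 lay on slide 2, and KO 6 and KO 7 on slide 1. Only KO 4 and KO 5 shared a slide, so slide and sample number cannot be told apart for the others.

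Each named difference was therefore also read within both classes of number. KO 5 to KO 7 against the 4 wild-type arrays numbered 5 to 8 gave 0.26 for Tomm40, 0.24 for Tomm22, -0.59 for Timm8a1, 0.24 for Hspe1, -0.25 for Hspa9, 0.58 for Phb and 0.40 for Phb2. In that fit limma called 0 of the 35 genes, against 4.67% of features. At an unadjusted p under 0.05 were 5 of the 35 genes and 3039 of 14746 features. KO 1 to KO 4 against WT 3 alone gave 0.82, 0.16, -0.15, 0.51, -0.34, -0.02 and 0.23 in the same order. With number class as a block only Timm8a1 was called, against 5.08% of features. The difference between the classes was tested after the data had been seen, as an interaction in limma whose 1 to 4 class holds WT 3 as its only wild-type array: 0 of the 35 genes passed, against 1.94% of features, and Tomm7, Tomm40, Timm9 and Phb were under an unadjusted p of 0.05. How many of all features were under that p was not counted, so it cannot be said whether these genes stand out from the rest.

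**Figure D4:**
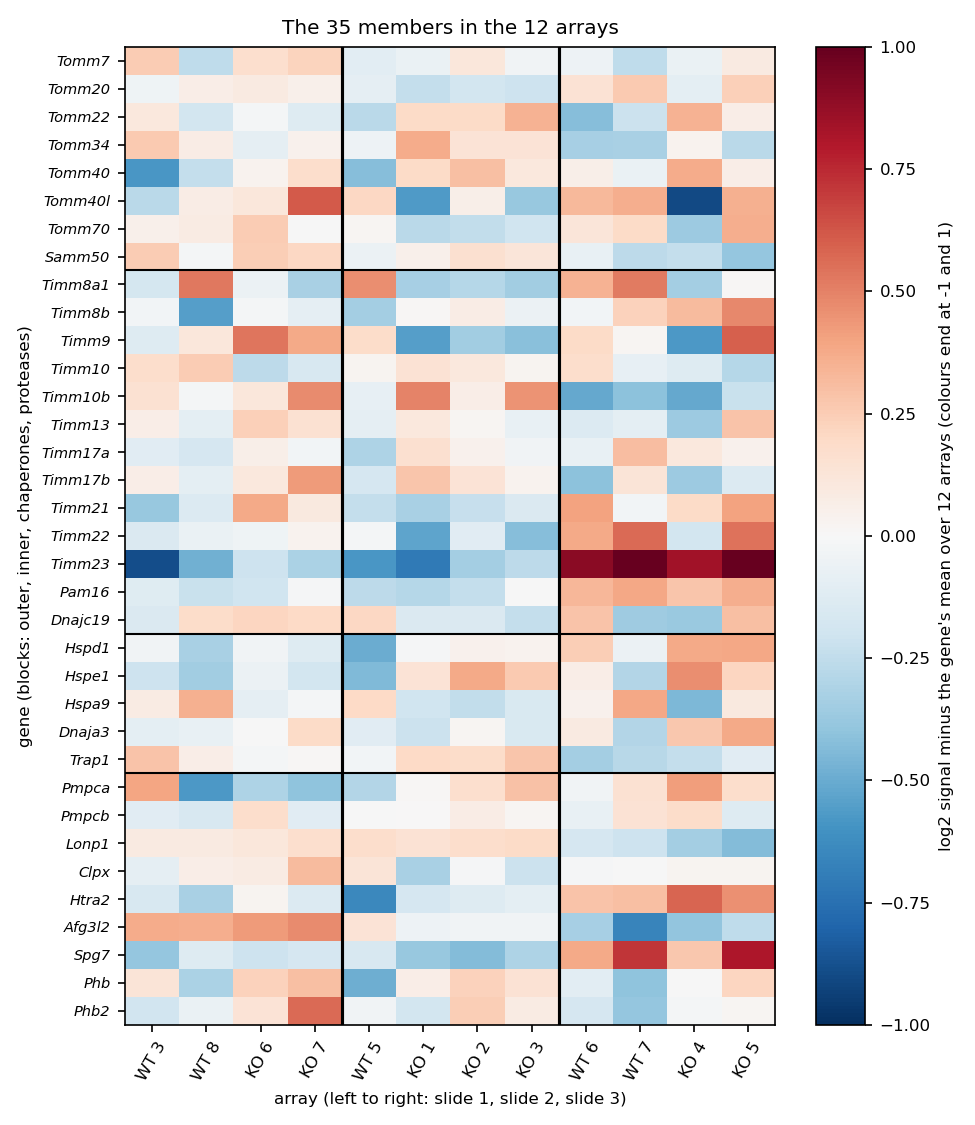
The 35 genes (vertical axis, in blocks from the outer membrane down to the proteases) in the 12 arrays (horizontal axis, ordered by slide), coloured by log2 signal minus the gene's mean over the 12 arrays. Timm23 is high on all 4 arrays of slide 3 whatever the genotype, while Timm8a1 is high in every wild-type array but WT 3.

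Hspd1 and Hspe1 lie head to head on chromosome 9, an arrangement in which 1 stretch of DNA serves as the promoter of both. By RefSeq's promoter entries for GRCr8 their start sites are 290 bases apart. The windows of 250 bases before to 50 bases after each start thus share 211 bases. By RefSeq's gene bounds, however, Hspd1 runs to base 64084332, past the Hspe1 start at 64084327, and the printed promoter lies inside it. The heat shock element, the binding site of HSF1, was searched on both strands as the units GAA, TTC and GAA in turn, each 2 bases from the next, and it matched 2 of the 31 genes of the set with a promoter in RefSeq's table (6.45%), namely these neighbours, through the same bases. It matched 0.798% of all 33469 promoters of that length and 0.490% of the 7956 that belong to tested genes. The ETS motif CCGGAAG overlaps that match in the printed sequence.

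ETS motifs were common in the set. CCGGAAG, searched on both strands, was found in 13 of the 31 promoters (41.9%), against 8.75% of all promoters and 18.8% of those of tested genes. Those with the lower mean in the knockout were Tomm20, Tomm70 and Timm10. The others, with the higher mean, were Tomm22, Timm8b, Timm10b, Timm23, Pmpca, Pmpcb, Hspd1, Hspe1, Dnaja3 and Phb2. Hspd1 and Hspe1 are both counted, through the same bases. Whether the motif goes with a direction was not tested.

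Other motifs were rarer or common everywhere. The NRF1 motif, CATG with GCG before it and CGC after it, was in Tomm7 alone (3.23%, against 2.16% of tested genes), the composite element TGATGNAAN of CHOP and C/EBP proteins in Tomm40l, Timm22 and Hspa9 (9.68%, against 2.0%), and CCAAT in 12 (38.7%, against 38.5%). These are matches of letters in a window and were not tested as sites. Tomm34, Lonp1, Clpx and Htra2 were not matched in that table.

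Regulators of the mitochondrial unfolded protein response, the program that links matrix protein damage to nuclear transcription of these chaperones and proteases, all had lower means in the knockout. None of the 4 passed in limma. At an unadjusted p under 0.05 were 2 of these 4, where 6.23% of all features were lower at that p. Ddit3 (CHOP) had the smallest p: it ran from 2.12 to 2.62 in the knockout and 2.36 to 3.52 in the wild type, a difference of -0.66 ± 0.19 (adjusted p = 0.108). Hsf1 differed by -0.36, Atf4 by -0.30 and Atf5 by -0.12. Hspd1 and Hspe1, known targets of HSF1, differed by 0.23 and 0.42, and none of these differences passed. The activity of HSF1 was not measured, and no link between these transcripts was tested.

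Of 26 further import and quality control genes 19 were tested, and none passed; 14 means were higher in the knockout and 5 lower, with a median of 0.11. At an unadjusted p under 0.05 were 2 with the higher and 1 with the lower mean, or 15.8%, against 15.6% of all features. The smallest p was that of Agk, a kinase and subunit of the Timm22 translocase, at 0.54 ± 0.22 (adjusted p = 0.264).

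Cytosolic chaperones and the ribosomal proteins of the mitochondrion were set beside the set as well. Among 18 tested cytosolic chaperones 15 means were higher in the knockout, none passed and the median was 0.16, or 11 means and 0.03 under quantile normalization; the smallest p was that of the co-chaperone Stip1 (0.39, adjusted p = 0.330), and the inducible Hspa1a and Hspa1b were well above background on no array. None of these chaperones was under an unadjusted p of 0.05. Among 68 mitochondrial ribosomal proteins 50 means were higher, none passed and the median was 0.11. At an unadjusted p under 0.05 were 9 higher and 1 lower, or 14.7%, against 15.6% of all features. The smallest p was that of Mrpl10 (0.54 ± 0.17, limma adjusted p = 0.137). Over all tested features 55.3% had the higher mean in the knockout, or 50.7% under quantile normalization.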

How the data were processed

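Total RNA was labelled with Cy3, per the labels' protocols. Images were read with Agilent Feature Extraction 10.7 per the submitters' processing notes, while the file headers name 10.1.1.1. The deposited scanner files hold background-treated spot intensity on a linear scale, with yes-or-no quality flags as other columns, per the file headers. The deposited value table holds log2 values that are alike between arrays once sorted, as after quantile normalization, with a median of 3.06 in every column and a Spearman correlation with each array's own scanner signal of 0.998; it was used as an alternative.

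Spots flagged as uneven or outlying were left out, spots of a probe were averaged, and each array's 75th percentile of log2 processed signal was subtracted. This scaling sets arrays of different brightness side by side but assumes that most probes do not differ. The brightest probe stood for each gene name. Features were kept for testing when 5 or more of the 12 arrays flagged this probe as well above background (14746 of 36174). The fit used lmFit and eBayes of limma 3.58.1 in R 4.3.3 (two-sided, no covariate) and Benjamini-Hochberg adjustment over all tested features. Values for a gene's further probes came from a separate fit of the same kind over all probes that passed the filter. Their adjusted p was taken over those probes. The method was tested on simulated data. Groups came from the sample titles. The number of arrays limits the precision, and 0 spots were saturated.

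Alternatives were other background correction, scaling, filters, probes, variance models and blocks, single slides and left-out arrays. Each wild-type array's value is given for the 2 genes with the smallest p in each role, for called genes and for 5 pairs of paralogs or partners. The knockout arrays of these genes are given by range and median. The gene with the smallest p stands for each other list. Members, lists and this rule were chosen with earlier results of these data known. Promoters, from RefSeq's table for GRCr8, were searched for motifs on both strands.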

Additional observations from a re-analysis of the deposited data

Results flagged for a closer look

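In 2 of the 35 genes 1 wild-type array lay far from the other 4. For Timm8a1 this was WT 3, the lowest of the wild type at 0.273, with the next array at 0.799. For Timm13, its partner, WT 3 was the highest at 1.57, with the next at 1.42. A gap of that relative size arises by chance in about 5% of groups, and 2 of 70 groups showed one, so the count is below that share. No explanation for these values was tested.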

How the results depend on the processing

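Across 990 values of the 35 genes under alternative settings, 6 passed the threshold (5 for Timm8a1, 1 for Phb) and 103 changed sign; Tomm40, Timm8a1, Timm8b, Timm21, Hspd1, Hspe1, Hspa9, Htra2 and Phb2 kept theirs throughout. Of all features 161 were called (103 higher and 58 lower in the knockout), and the count was 25 with normexp, 104 under quantile normalization (54 and 50) and in the deposited table, 289 with the filter at all 12 arrays, 25 at the second probe, 403 with slide as a block, 1985 within slide 2, 748 with number class as a block, 688 with numbers 5 to 8 alone, 52 with KO 1 to KO 4 against WT 3 and 299 with the trended and robust variance. It was 0 without a filter on dim probes, within slide 1 and within slide 3, where limma gave 1981, 1760 and 782 features at an unadjusted p under 0.05; the cause was not tested. Slide 2, like numbers 1 to 4, holds 1 wild-type array, which is assumed to vary like the knockout arrays. Leaving out 1 array gave 14 (without WT 5 or WT 8) to 650 (without WT 3), a change of over 1.5-fold for every array but KO 5. Sample numbers 3, 5, 6 and 7 occur in both groups, and their deviations correlated between genotypes at 0.461, -0.109, 0.0733 and 0.050. KO 3 correlated most with the wild-type array of its own number, and KO 5, KO 6 and KO 7 did not. WT 3 is the only wild-type array with a number of 1 to 4. The main fit did not pair the samples. With these numbers as a replicate block limma called 0 features (1537 at an unadjusted p under 0.05), and the block gave Tomm40l 0.020, Tomm70 0.0063, Timm9 0.21, Timm23 -0.060, Dnajc19 0.12, Pmpca -0.12, Pmpcb -0.00085 and Clpx 0.049 with the sign changed. Of the inner membrane genes 1, Timm8a1, was called in the settings named for it, and 0 to 1 with an array left out, as for the proteases and prohibitins. Median differences moved for the outer membrane to -0.022 under quantile normalization, -0.023 in the deposited table, -0.050 at the second probe and -0.16 with KO 1 to KO 4 against WT 3, for the inner membrane to 0.21 within slide 1 and 0.16 with numbers 5 to 8, for the chaperones to 0.29 within slide 3, and for the proteases and prohibitins to 0.17 within slides 1 and 3 and -0.020 with KO 1 to KO 4 against WT 3. With 1 array left out the medians ran from 0.030 to 0.17, -0.098 to 0.11, 0.12 to 0.22 and 0.041 to 0.14 in that order. Signs of single genes changed as follows. With KO 1 to KO 4 against WT 3 alone the values were Tomm7 -0.27, Tomm34 -0.093, Samm50 -0.23, Timm10b -0.030, Timm13 -0.15, Timm17b -0.046, Pam16 0.061, Trap1 -0.18, Pmpca -0.17, Lonp1 -0.047, Afg3l2 -0.50, Spg7 0.17 and Phb -0.020. Within slide 1 the values were Tomm20 0.059, Tomm22 -0.036, Tomm34 -0.19, Tomm40l 0.46, Tomm70 0.058, Timm9 0.46, Timm22 0.10, Pam16 0.065, Dnajc19 0.19, Trap1 -0.18, Pmpca -0.27, Clpx 0.21 and Spg7 0.066. With numbers 5 to 8 alone the values were Tomm20 0.031, Tomm40l 0.12, Tomm70 0.098, Timm9 0.37, Timm23 -0.057, Dnajc19 0.16, Lonp1 -0.024 and Clpx 0.099. With number class as a block the values were Tomm40l 0.025, Timm9 0.15, Pam16 0.015, Dnajc19 0.082, Pmpca -0.050, Lonp1 -0.031, Clpx 0.055 and Spg7 0.016. At the second probe the values were Tomm70 0.013 and Spg7 0.041. Under quantile normalization the values were Samm50 -0.060, Timm23 -0.12, Pmpcb -0.043 and Lonp1 -0.077. In the deposited table the values were Samm50 -0.061, Timm23 -0.12, Trap1 -0.0015, Pmpcb -0.044 and Lonp1 -0.083. Within slide 3 the values were Samm50 -0.15, Timm17a -0.040, Timm17b -0.11, Timm23 -0.043, Pmpcb -0.0098, Lonp1 -0.20 and Clpx 0.038. Within slide 2 the values were Timm10 0.065, Pam16 0.091, Dnaja3 -0.0039, Lonp1 -0.00014 and Afg3l2 -0.17. With slide as a block the values were Pam16 0.035, Lonp1 -0.055 and Clpx 0.0063. With normexp the values were Afg3l2 -0.053. With 1 array left out Samm50 from -0.0023 to 0.13, Timm23 from -0.22 to 0.26, Pam16 from -0.11 to 0.056, Dnajc19 from -0.16 to 0.0014, Pmpca from -0.0050 to 0.24, Lonp1 from -0.043 to 0.080, Clpx from -0.085 to 0.022, Afg3l2 from -0.12 to 0.14 and Spg7 from -0.29 to 0.015 spanned 0. Slide 3 had the fewest spots well above background, and Tomm40l was so on 11 of 12 arrays.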
